A study of Mus musculus with 10 samples.

Results

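Granzymes and their partner molecules are the weapons of cytotoxic lymphocytes, and 10 such genes are described here in a mouse pancreatic cancer model: Gzma, Gzmb, Gzmc, Gzmd, Gzme, Gzmf, Gzmk, Prf1, Nkg7 and Ncr1. They were taken by symbol from a table of 48516 genes, in which each symbol occurred once, and so all 10 were found. The genes were chosen by name with their FPKM values in these same libraries already known. Their levels across libraries are therefore given as a description, with no test.

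Natural killer (NK) cells and cytotoxic T cells store granzymes, which are serine proteases, in secretory granules together with perforin. On contact with a target cell the granules fuse with the membrane, perforin (Prf1) forms pores, and granzymes enter the target and start its death. Granzyme B (Gzmb) cleaves after aspartate and activates caspases, whereas granzymes A (Gzma) and K (Gzmk) have a trypsin-like specificity. Gzmc to Gzmg are rodent genes that lie beside Gzmb. Nkg7 encodes a membrane protein of the granules, and Ncr1 encodes NKp46, an activating receptor of NK cells.

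The samples were 10 RNA libraries from the FVB strain, with no treatment, each made by polyA selection from cells labelled as grown to 90% confluence. The metastasis group held 5 lines from liver metastases (Met25, Met35, Met36, Met38 and Met72) that arose after Ink4a.1 cells, a pancreatic cancer line, were placed in the pancreas. The primary group held 5 libraries labelled as Ink4a primary tumour with the same numbers, 25, 35, 36, 38 and 72. The tissue label of all 10 is pancreas tumour, the age and sex of the animals are not stated, and the series design names 4 mice where 5 metastasis numbers are labelled. The labels leave unstated whether each primary library had its own animal or culture. A p-value here therefore reflects the spread among libraries, which may be technical. The values were FPKM, fragments per kilobase of transcript scaled to library depth, which allow levels of different genes to be compared per length.

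Before the results, the libraries have to be described, since lymphocyte genes are not those of a tumour cell line. Ptprc, the pan-leukocyte antigen CD45, ranged from 4.34 FPKM (metastasis 25) to 46.1 FPKM (metastasis 38) among the 6 libraries numbered 25, 38 and 72. It did not exceed 0.0178 FPKM in those numbered 35 and 36. Genes of other cells were compared over the same division, for which the share of all rows reaching 1 FPKM is 21.2%: all 6 pan-leukocyte and all 7 macrophage genes listed, 4 of 7 B and plasma cell genes and 2 of 4 plasmacytoid dendritic cell genes were higher in every library of these 6 than in the 4 others. So were 4 of 8 neutrophil and 2 of 4 erythroid genes, and 1 of 4 hepatocyte genes, which is near the share of all rows. Summed macrophage genes had 799 to 4645 FPKM in the 6, against 3.03 FPKM or less in the 4, and the part of these cells in the levels below was not tested. Metastasis 25 stood apart: it had the highest FPKM sum (939415, against at most 653161 in the other 9) and the lowest estimated depth, 15.7 M fragments against 24.0 to 30.4 M. In bulk RNA, fewer cells of a type and less RNA per cell cannot be told apart. A value of exactly 0 need not mean absence here. In metastasis 25, 11 genes were listed at 0 that had at least 1 FPKM in each of the other 9 libraries, among them the mitochondrial gene mt-Co1.

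The promoters are shown first, because those of Gzmc, Gzmd, Gzme and Gzmf are much alike. Gzmb, Gzmc, Gzmd, Gzme and Gzmf lie on the minus strand of chromosome 14. The 200 bases before each RefSeq start are printed 5′ to 3′ (GRCm38.p6), with capitals for TGTGGT, the core site of Runx factors, on either strand.
Gzmb: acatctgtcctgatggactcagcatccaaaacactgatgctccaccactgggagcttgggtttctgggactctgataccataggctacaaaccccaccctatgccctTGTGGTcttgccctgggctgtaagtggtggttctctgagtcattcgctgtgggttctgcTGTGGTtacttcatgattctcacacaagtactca
Gzmc: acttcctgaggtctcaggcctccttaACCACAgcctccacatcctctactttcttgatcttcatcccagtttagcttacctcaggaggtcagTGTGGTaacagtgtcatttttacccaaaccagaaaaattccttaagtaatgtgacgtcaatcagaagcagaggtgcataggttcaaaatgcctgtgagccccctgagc
Gzmd: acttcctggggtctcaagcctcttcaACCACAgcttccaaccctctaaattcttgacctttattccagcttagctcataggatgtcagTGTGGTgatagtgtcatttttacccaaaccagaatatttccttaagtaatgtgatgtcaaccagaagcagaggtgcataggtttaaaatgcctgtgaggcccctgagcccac
Gzme: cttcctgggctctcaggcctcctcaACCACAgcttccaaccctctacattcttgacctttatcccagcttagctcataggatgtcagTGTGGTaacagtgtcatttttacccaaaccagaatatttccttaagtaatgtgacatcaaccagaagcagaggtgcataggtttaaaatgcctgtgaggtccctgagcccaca
Gzmf: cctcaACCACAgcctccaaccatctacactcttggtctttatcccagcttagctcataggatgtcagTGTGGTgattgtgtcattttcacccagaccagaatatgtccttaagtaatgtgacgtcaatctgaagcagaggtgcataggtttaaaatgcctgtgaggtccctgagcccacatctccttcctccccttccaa
These windows are chr14:56262335-56262534 (Gzmb), chr14:56234658-56234857 (Gzmc), chr14:56132594-56132793 (Gzmd), chr14:56120626-56120825 (Gzme) and chr14:56211408-56211607 (Gzmf).

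Over windows of 300 bases (250 before and 50 after the start), the promoters of Gzmc, Gzmd, Gzme and Gzmf were 86.1% to 94.0% identical to each other at aligned bases. The promoter of Gzmb was 54.2% to 58.7% identical to these 4, and 56.5% and 58.2% identical to the promoters of Gzma and Gzmk on another chromosome. All 10 genes had a RefSeq promoter. TGTGGT, sought on both strands, occurred in 9 of the 10 windows, all but that of Gzmk, and in 16.8% of all 32851 promoter windows of this length. The windows of Gzmc, Gzmd, Gzme and Gzmf resemble each other throughout, so their matches are not separate. The AP-1 letters TGANTCA occurred in 1 of the 10, Gzmb, and in 7.81% of all windows. The cAMP response element TGACGTCA occurred in 2 of the 10, Gzmc and Gzmf (1.79% of all windows), and the T-box letters TCACACCT in 1, Nkg7 (1.28% of all windows). A match of letters is not a bound site.

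The coding sequences set a limit on how well these granzyme genes can be told apart. Gzmd and Gzme were 94.8% identical in coding sequence, with a longest identical run of 96 bases. Gzmc was 73.55%, 73.38% and 74.25% identical to Gzmd, Gzme and Gzmf, and 76.7% identical to Gzmb. Of all windows of 50 bases in the coding sequence, 19.3% of those of Gzmd and 21.8% of those of Gzme occurred in a transcript of another gene. The share was 3.15% for Gzmc, 2.01% for Gzmf and 0 for Gzma, Gzmb, Gzmk, Prf1, Nkg7 and Ncr1. With windows of 100 bases it was 0 for all 10 genes. The read length and the handling of shared reads are not given in the sources used here, so the split between Gzmd and Gzme is uncertain. Gzmf shares 151 of its 919 exon bases with the gene model Gm4022 on the opposite strand. Whether strand was used in counting is also not given, so reads from these bases cannot be assigned with certainty. The locus of Gzmk overlaps that of Esm1 on the opposite strand, but 0 of its 1389 exon bases are shared.

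The granzymes of the chromosome 14 cluster were found in 5 libraries, primary 25, both libraries of number 38 and both of number 72, and were at or near 0 in the other 5. Their levels were low in primary 72, at 0.688 to 2.62 FPKM, and higher in the other 4 of these libraries. Gzmb had 0, 44.8, 24.2, 0.0319 and 0 FPKM in metastasis 25, 38, 72, 35 and 36. In primary 25, 38, 72, 35 and 36 it had 32.4, 20.9, 1.73, 0 and 0 FPKM. Metastasis 38 was highest and primary 72 the lowest of the 5 libraries with the transcript, and the metastasis and primary ranges overlapped.

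Gzmc, whose product is a granzyme of activated rodent lymphocytes, had the highest single value of the set. It was listed at 0 in metastasis 25, 35 and 36, with 85.5 FPKM in metastasis 38 and 12.8 FPKM in metastasis 72. In the primary libraries it had 55.3 FPKM (25), 15.4 FPKM (38), 2.62 FPKM (72), 0.0515 FPKM (35) and 0 FPKM (36). Unlike Gzmb, which was higher in metastasis 72 than in primary 38, Gzmc was higher in primary 38 than in metastasis 72.

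Gzmd had 60.9 FPKM in metastasis 38 and 11.9 FPKM in metastasis 72, and was listed at 0 in the other 3 metastasis libraries. It had 40.1, 3.32 and 1.39 FPKM in primary 25, 38 and 72 and was listed at 0 in primary 35 and 36. Metastasis 38 and primary 25 thus lay well above the other 8 libraries. Gzme had 24.8 and 6.81 FPKM in metastasis 38 and 72, against 22.7, 2.08 and 0.688 FPKM in primary 25, 38 and 72. Gzmf had 49.6 and 10.2 FPKM in metastasis 38 and 72, against 46.5, 4.88 and 1.08 FPKM in primary 25, 38 and 72. The order of these 5 libraries was the same for Gzmd, Gzme and Gzmf: metastasis 38, primary 25, metastasis 72, primary 38, primary 72.

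The granzymes outside this cluster, which lie on chromosome 13, were scarce. Gzma had 5.39 FPKM in metastasis 38 and was listed at 0 in the other 4 metastasis libraries. In the primary libraries it had 1.85, 0.351 and 0.341 FPKM in 25, 38 and 72 and was listed at 0 in 35 and 36. Metastasis 72 is the exception among the 5 libraries with granzyme transcripts, since Gzma was listed at 0 there while Gzmb had 24.2 FPKM. Gzmk, often expressed by less differentiated T cells, had 0.0536 FPKM in primary 25, about 1.3 fragments, and was listed at 0 in the other 9 libraries.

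Prf1, the perforin gene, was highest in the same metastasis library as Gzmb. It had 0.161, 11.5, 9.59, 0.0211 and 0 FPKM in metastasis 25, 38, 72, 35 and 36. Its level was 5.33, 2.95, 0.261, 0 and 0 FPKM in primary 25, 38, 72, 35 and 36. Metastasis 72 ranked above primary 25 here, whereas it ranked below primary 25 for Gzmb.

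Nkg7 was the member with the most even levels among the 5 libraries. It had 0.171, 55.6 and 23.5 FPKM in metastasis 25, 38 and 72, against 31.7, 24.3 and 4.40 FPKM in primary 25, 38 and 72. It was listed at 0 in all 4 libraries of numbers 35 and 36. Nkg7 and Prf1 were the members with a value above 0 in metastasis 25, with about 2.4 and 6.3 fragments.

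Ncr1, the NK cell receptor, was concentrated in a single library. It had 9.20 FPKM in metastasis 38 and 0.0485 FPKM in metastasis 72, about 2.2 fragments, and was listed at 0 in metastasis 25, 35 and 36. In the primary libraries it had 0.511 FPKM (25), 1.22 FPKM (38) and 0.135 FPKM (72), and was listed at 0 in 35 and 36. The next highest library, primary 38, was far below metastasis 38.

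**Figure D1:**
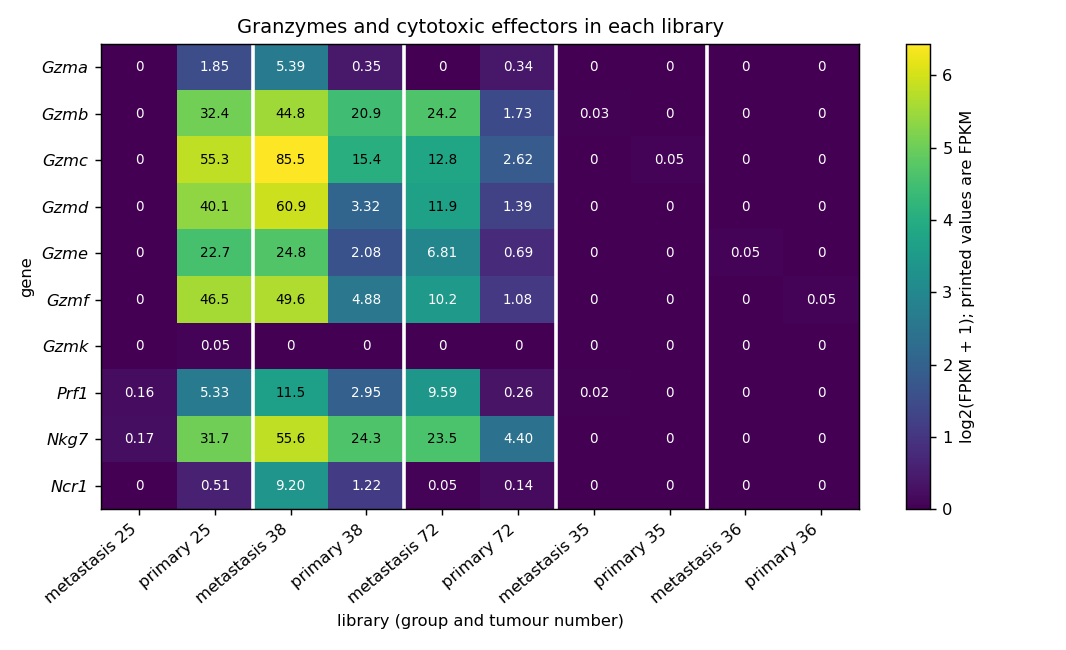
FPKM of the 10 genes (rows) in the 10 libraries (columns, metastasis left of primary within each tumour number), coloured by log2(FPKM + 1). Values of Gzmb to Gzmf, Prf1 and Nkg7 are higher in primary 25, both libraries of number 38 and metastasis 72 than in primary 72. In metastasis 72 Gzma is 0 and Ncr1 0.0485 FPKM, below their values in primary 72. Metastasis 38 is highest for 9 of the 10 genes, and values are at or near 0 in metastasis 25 and in numbers 35 and 36.

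Numbers 35 and 36 gave 5 values above 0 in their 4 libraries, from 0.0211 to 0.0522 FPKM. Each corresponds to about 1.1 to 1.3 fragments by the estimated depth. Of the 10 genes, 2 (Prf1 and Nkg7) were higher in all 6 libraries of numbers 25, 38 and 72 than in all 4 of 35 and 36, beside 15.2% of all 27673 rows above 0 in at least 1 library and 21.2% of the 17076 rows that reached 1 FPKM. When metastasis 25 was set with the 4, 8 of the 10 were higher in each of the 5 remaining libraries, beside 7.6% of all rows and 9.68% of those that reached 1 FPKM. The exceptions were Gzma and Gzmk. The genes were chosen with this division known, so nothing is read from these counts.

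Metastasis 25 and primary 72 had similar Ptprc levels, 4.34 and 5.88 FPKM, but differed in the cytotoxic genes. Summed over the 10 genes, metastasis 25 had 0.332 FPKM and primary 72 had 12.7 FPKM. Per FPKM of Ptprc it was 0.0765 in metastasis 25, 7.54 in metastasis 38 and 9.10 in metastasis 72, against 15.0, 6.10 and 2.15 in primary 25, 38 and 72. Metastasis 25 held 11667 FPKM in sum over 8 neutrophil genes, 16080 FPKM over 4 hepatocyte genes and 28870 FPKM over 4 erythroid genes. The other 9 libraries held at most 59.2, 1200 and 863 FPKM of these. T cell genes were low there, with Cd3e, a chain of the T cell receptor complex, at 0.192 FPKM and Cd8a, the CD8 coreceptor of cytotoxic T cells, at 0.0650 FPKM. The part of these other cell types, and of the depth of this library, in the low values was not tested.

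The contrast given by the labels, metastasis against primary, was fitted over all 27673 rows above 0 in at least 1 library with limma on log2(FPKM + 1). No row was called at a Benjamini-Hochberg adjusted p under 0.05 (0% of rows), and 157 had an unadjusted p under 0.05. That is far below a share of 0.05 of the rows. This fit leaves out the tumour number, so differences between numbers count as residual spread and make calls harder to reach. Without metastasis 38, 1 row was called (0.00369%), the small nucleolar RNA gene Snora78. None of the 10 genes was called (limma adjusted p = 0.9999 for each), nor was any at an unadjusted p under 0.05. The log2 difference was -0.15 (SE 1.52) for Gzmb, -0.31 (SE 1.60) for Gzmc and 0.18 (SE 1.46) for Gzmd. For Prf1 it was 0.46 (SE 0.94), for Nkg7 -0.29 (SE 1.54) and for Ncr1 0.30 (SE 0.64). The median over the 10 genes was 0.023, beside 0.0061 over all rows. The standard error exceeded the size of the difference for all 10 genes, and the direction turned for 9 of them when single libraries were left out. A missed threshold does not show that the groups had equal levels.

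Within the tumour numbers the directions were opposite. In number 25, 8 of the 10 genes were lower in metastasis by at least 1 on the log2(FPKM + 1) scale (7.99% of all rows), from -5.82 for Gzmc to -1.51 for Gzma, and 0 were higher by as much (8.84% of all rows). In number 38, 9 of the 10 were higher in metastasis by at least 1 (6.36% of all rows), from 1.06 for Gzmb to 3.84 for Gzmd, and 0 were lower by as much (1.99% of all rows). In number 72, 7 of the 10 were higher by at least 1 (5.91% of all rows), up to 3.20 for Gzmb, while Gzma (-0.42) and Ncr1 (-0.11) were lower by less than 1. None of the 10 was lower by at least 1, beside 7.91% of all rows. In numbers 35 and 36 no gene differed by as much as 0.1. Of all rows, 0.82% were higher and 1.04% lower by at least 1 in number 35, and 0.582% and 0.6% in number 36. Each of these is a difference between 2 libraries, with no replicate check. The directions are not particular to these genes. Summed pan-leukocyte genes had 139, 801 and 358 FPKM in metastasis 25, 38 and 72, against 508, 327 and 218 FPKM in the primary libraries. Summed macrophage genes and summed T cell genes had the same directions, while summed neutrophil genes had the opposite direction in each of these numbers.

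**Figure D2:**
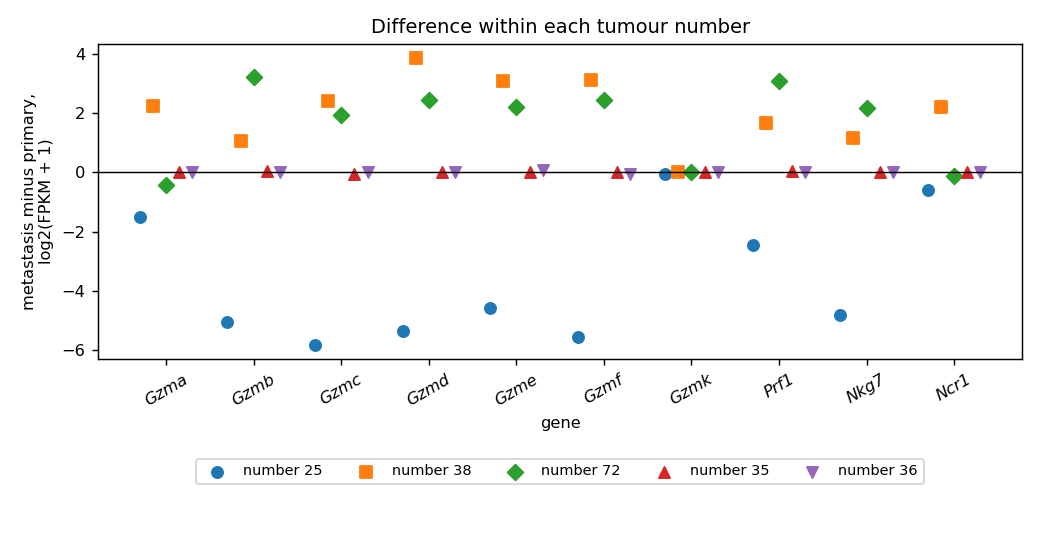
Metastasis minus primary for each gene within each tumour number, on the log2(FPKM + 1) scale, with 1 point per number. Points of number 25 lie at or below 0, those of number 38 at or above 0, and those of number 72 above 0 for 7 genes, while numbers 35 and 36 lie at 0 or within 0.1 of it.

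The members did not keep fixed proportions. The sum of Gzmc, Gzmd, Gzme and Gzmf relative to Gzmb was 4.93 in metastasis 38 and 1.72 in metastasis 72, against 5.07 in primary 25, 1.23 in primary 38 and 3.34 in primary 72. Primary 38 and metastasis 72, the libraries with the lowest ratios, had Gzmb levels close to each other. Gzme relative to Gzmd lay between 0.408 and 0.627 and Gzmf relative to Gzmd between 0.774 and 1.47 in the 5 libraries. Gzmg, a similar granzyme gene that is no member, lay between 1.11 and 1.36 relative to Gzmd. It had 69.8 FPKM in metastasis 38, against 51.9 FPKM in primary 25. The part of shared sequence in these proportions was not tested. Prf1 relative to Gzmb was 0.256 in metastasis 38 and 0.397 in metastasis 72, against 0.141 to 0.164 in the 3 primary libraries. Nkg7 relative to Gzmb lay between 0.973 and 1.24 in 4 of the libraries and was 2.54 in primary 72.

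NK and T cell transcripts also varied relative to each other. For Ncr1 relative to Cd3e the ratio was 1.04 in metastasis 38 and 0.00941 in metastasis 72, against 0.0655, 0.181 and 0.158 in primary 25, 38 and 72. Ncr1 rests on few fragments in some of these libraries, about 18 in primary 25, 5.3 in primary 72 and 2.2 in metastasis 72. Cd3e itself was 8.83 and 5.15 FPKM in metastasis 38 and 72, against 7.79, 6.72 and 0.855 FPKM in primary 25, 38 and 72. Cd8a was 11.6 and 10.5 FPKM in metastasis 38 and 72, against 10.5, 10.2 and 0.882 FPKM in primary 25, 38 and 72. Metastasis 72 thus held Cd8a and Gzmb at levels near those of primary 25 and 38, with Ncr1 near the value of single fragments.

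**Figure D3:**
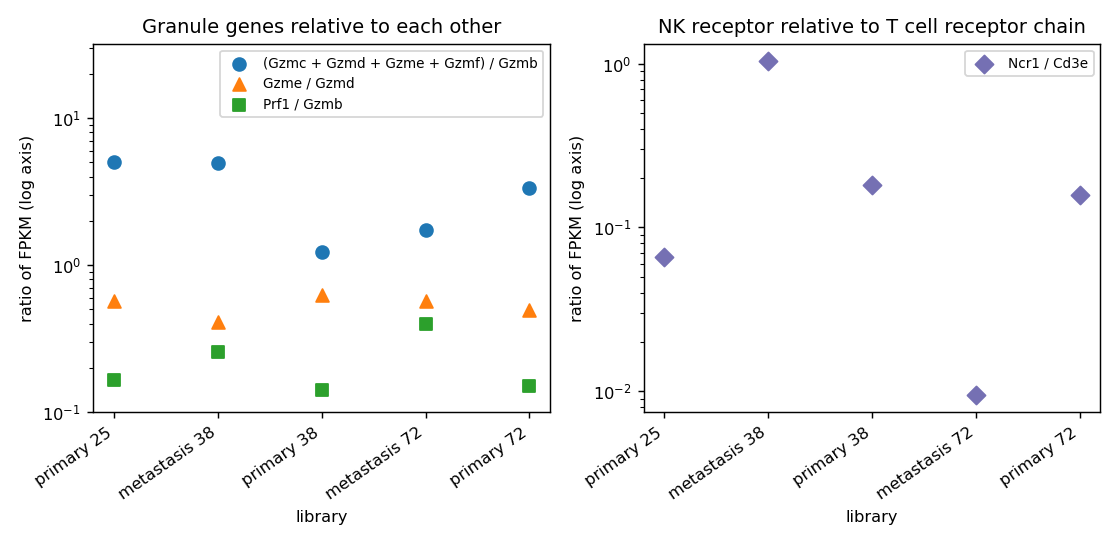
Ratios of FPKM (log axes) in the 5 libraries in which Gzmb reached 1 FPKM, for granule genes (left) and for the NK receptor gene Ncr1 over the T cell receptor chain gene Cd3e (right). Gzme over Gzmd stays between 0.408 and 0.627, while the sum of Gzmc to Gzmf over Gzmb runs from 1.23 to 5.07 and Ncr1 over Cd3e from 0.00941 to 1.04.

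On chromosome 14 the granzyme genes stand next to the mast cell proteases and cathepsin G. From Cma1 to Gzmb, 15 protein-coding genes were measured over 321 kb (GRCm38). The 5 members and Gzmg carried nearly all of the signal, and Gzmn, between Gzmg and Gzmf, was at most 0.159 FPKM. Of the mast cell proteases, Cma1 (mast cell chymase) had 5.76 and 0.554 FPKM in metastasis 38 and 72, against 2.70, 0 and 0.269 FPKM in primary 25, 38 and 72. Mcpt4, a further mast cell chymase, had 4.56 and 0.420 FPKM in metastasis 38 and 72, against 1.27, 0 and 0.0422 FPKM in primary 25, 38 and 72. Both were listed at 0 in primary 38, which had 20.9 FPKM of Gzmb. Ctsg, the neutrophil protease cathepsin G, had 1.53, 2.10 and 0.188 FPKM in metastasis 25, 38 and 72, against 0.511, 0 and 0.125 FPKM in primary 25, 38 and 72. It was highest in metastasis 38, as the granzymes were, but second highest in metastasis 25, where all 5 granzyme members of the cluster were listed at 0.

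**Figure D4:**
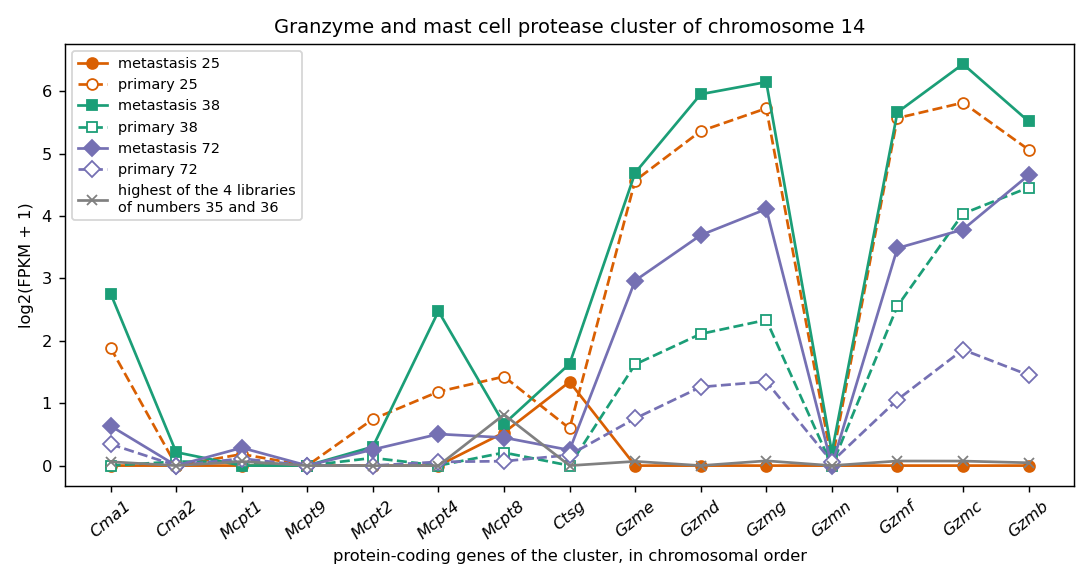
Level of each protein-coding gene from Cma1 to Gzmb in chromosomal order (x axis) as log2(FPKM + 1), with filled symbols for metastasis and open symbols for primary libraries. The signal lies in Gzme, Gzmd, Gzmg, Gzmf, Gzmc and Gzmb, falls to near 0 at Gzmn, and the lines of primary 38 and metastasis 72 rise towards Gzmb.

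Other genes of the cytotoxic programme were taken from lists. Of 12 T cell genes, all reached 1 FPKM in at least 1 library, and 8 were higher in all 6 libraries of numbers 25, 38 and 72 than in the 4 others (21.2% of rows reaching 1 FPKM). An exception was Trac, the T cell receptor alpha constant gene, with 0.974 to 2.29 FPKM in numbers 35 and 36 and 0.318 FPKM in metastasis 25. Their summed level was between 1.56 and 191 FPKM in metastasis and between 1.13 and 108 FPKM in primary libraries. Of 12 NK cell receptor genes found, 9 reached 1 FPKM and 5 were higher in all 6, against the same share of all rows. Klrk1, which encodes the activating receptor NKG2D, had 34.2 and 1.39 FPKM in metastasis 38 and 72, against 4.09, 6.73 and 0.926 FPKM in primary 25, 38 and 72. Klrb1c, the NK1.1 antigen gene, had 2.27 and 0.0257 FPKM in metastasis 38 and 72, against 0.163, 0.142 and 0.258 FPKM in primary 25, 38 and 72. Klrd1, which encodes CD94, had 29.7 FPKM and Il2rb, the shared beta chain of the interleukin-2 and interleukin-15 receptors, 23.3 FPKM in metastasis 38. Klra4, listed as an NK receptor gene, did not follow this pattern, with 21.8 to 41.4 FPKM in numbers 35 and 36, in which Ptprc was near 0.

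The transcription factor genes Tbx21 (T-bet) and Eomes, which drive the cytotoxic programme, were low. Tbx21 had 4.16 and 0.609 FPKM in metastasis 38 and 72, against 1.40, 1.12 and 0.273 FPKM in primary 25, 38 and 72. Eomes was at most 2.69 FPKM, again in metastasis 38. Runx3, a further factor of this programme, had 16.0 to 21.8 FPKM in numbers 35 and 36, above the 4.31 to 13.7 FPKM of the other 6 libraries. None of the 16 genes of this list, nor of the 12 T cell and 12 NK receptor genes, was called between metastasis and primary (limma, and 0 at an unadjusted p under 0.05).

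Genes that load and release granules were mostly expressed in all libraries. Of 16 such genes, 15 reached 1 FPKM and 5 were higher in all 6 libraries of numbers 25, 38 and 72, beside 21.2% of all rows reaching 1 FPKM, so the list's share was not far from the background. The genes with the highest values were Ctsl (cathepsin L), Calr (calreticulin), Lamp1 (a lysosomal membrane protein) and Vamp8 (a fusion protein of secretory granules). Each had at least 53.2 FPKM in all 10 libraries. Srgn, which encodes serglycin, the proteoglycan that holds granzymes in granules, had 106, 153 and 264 FPKM in metastasis 25, 38 and 72, against 232, 167 and 195 FPKM in primary 25, 38 and 72. It was at most 1.04 FPKM in numbers 35 and 36. Metastasis 25 thus held Srgn, which myeloid cells also express, while all 7 granzyme members were listed at 0. Ctsc, cathepsin C, which activates granzymes by removing a dipeptide, had 10.8, 264 and 104 FPKM in metastasis 25, 38 and 72, against 114, 140 and 53.3 FPKM in primary 25, 38 and 72. It was 3.03 to 12.0 FPKM in numbers 35 and 36. Cst7, cystatin F, an inhibitor of cathepsin C, had 9.61 FPKM in metastasis 38 and was listed at 0 in all 4 libraries of numbers 35 and 36. None of the 15 genes tested was called.

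Genes of granzyme inhibitors and related serpins differed among themselves. Of the 10 listed, 6 reached 1 FPKM and 2, Serpina3g and Serpinb1a, were higher in all 6 libraries of numbers 25, 38 and 72 (21.2% of rows reaching 1 FPKM). Serpina3g, a serpin of activated T cells, had 0.0372, 77.7 and 7.02 FPKM in metastasis 25, 38 and 72, against 15.8, 32.3 and 4.48 FPKM in primary 25, 38 and 72. It was at most 0.0233 FPKM in numbers 35 and 36, where the granzyme members were also at or near 0. Unlike Gzmb to Gzmf, Serpina3g was higher in primary 38 than in primary 25. Serpinb1a had 8.52 to 63.9 FPKM in the 6 libraries and 4.94 to 7.35 FPKM in numbers 35 and 36. Serpinb6a was the most abundant, with up to 741 FPKM, and Serpinb6b had 5.72 to 105 FPKM. The highest values of both were in numbers 35 and 36, and those of Serpinb9 and Serpinb9b there are given next. Serpinb9, an intracellular inhibitor of granzyme B, had 31.7 and 50.3 FPKM in metastasis 35 and 36, against 20.04 and 36.5 FPKM in primary 35 and 36. These 4 libraries had at most 0.0319 FPKM of Gzmb. In numbers 25, 38 and 72 Serpinb9 had 1.81, 62.2 and 27.9 FPKM in metastasis, against 39.8, 47.3 and 9.61 FPKM in primary libraries. Its lowest value was in metastasis 25. Its relative Serpinb9b, whose product inhibits granzyme M, had 8.46 and 33.4 FPKM in metastasis 35 and 36, against 9.37 and 13.5 FPKM in primary 35 and 36. In the other 6 libraries Serpinb9b was at most 4.02 FPKM. Gzmm, the granzyme it inhibits, was between 0.429 and 1.03 FPKM in all 10 libraries. None of the 9 inhibitor genes tested was called between the groups. The log2 difference was -0.19 (SE 0.82) for Serpinb9 and 0.074 (SE 0.92) for Serpinb9b.

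**Figure D5:**
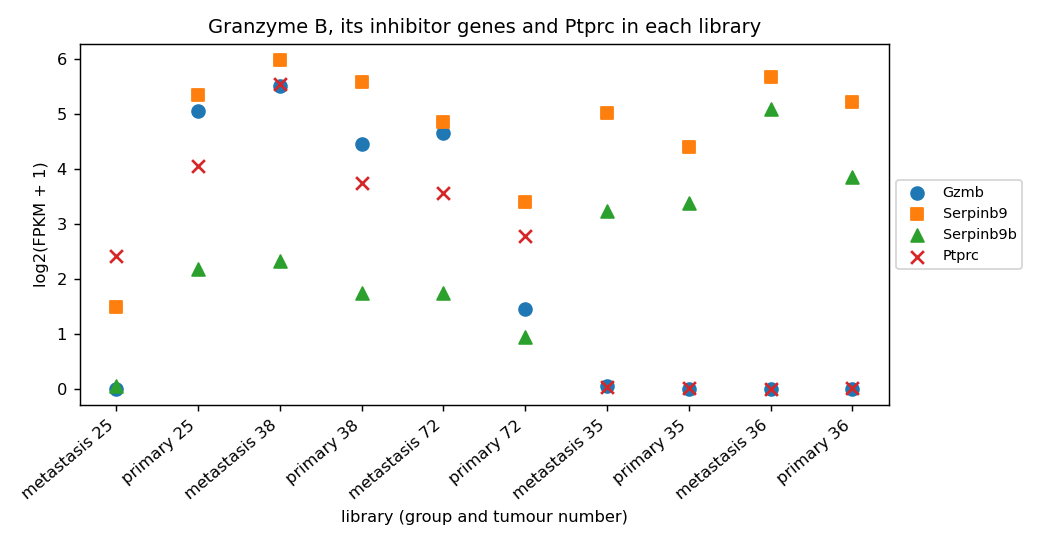
Gzmb, the inhibitor genes Serpinb9 and Serpinb9b, and Ptprc in each library as log2(FPKM + 1), with metastasis left of primary within each tumour number. In numbers 35 and 36 Gzmb and Ptprc lie at or near 0 while Serpinb9 lies between 20.04 and 50.3 FPKM, and in metastasis 25 all but Ptprc and Serpinb9 lie near 0.

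The genes whose pattern over the 10 libraries was most like that of each member were sought, except for Gzmk, which did not reach 1 FPKM, by Pearson's r of log2(FPKM + 0.1). The search covered 12713 named genes that reached 1 FPKM in 2 or more libraries. The points share their libraries and the division described above, so r is a description. For Gzmb they were Csf2 (GM-CSF, r = 0.998), Cd3g (a T cell receptor complex chain, 0.996) and Pdcd1 (the checkpoint receptor PD-1, 0.995). For Gzmd, Gzme and Gzmf the first was Gzmg (0.995 to 0.999). For Gzmc the first was H2-Oa (0.997), a chain of the MHC class II accessory molecule H2-O, and for Nkg7 it was the prostaglandin receptor gene Ptger2 (0.996). For Prf1 the first was the glypican gene Gpc2 (0.985), followed by Cd8b1 (0.983). For Ncr1 the first was the T cell receptor segment Trbv24 (0.975), and for Gzma it was the connexin gene Gja5 (0.982). The second gene was Spats2l for Gzmd and Gzme (0.993 for each), and Camk1g for Gzmc (0.996) and Gzmf (0.992). It was Rhoh for Nkg7 (0.996), H2-T23 for Ncr1 (0.969) and Iglc3 for Gzma (0.980).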

How the data were processed

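The data are FPKM values that the authors deposited as 1 table, in which each of the 10 libraries is a column headed by its sample title. Salmon, edgeR and mm8 (a mouse build) appear in the submitters' processing notes without role or version. The program used for FPKM was not given in the sources used here. Of the gene identifiers, 40685 occur with the same version in GENCODE M21 (GRCm38), and 61.9% of these have the same locus within 1 base and 99.8% lie inside the locus given. Coordinates are therefore for GRCm38, not mm8. Lines without an identifier were left out. Numbers of fragments were estimated from the lowest values of 742 genes with a single exon and 3000 or more bases, on the assumption that FPKM was scaled library by library.

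All 27673 rows above 0 in at least 1 library were tested, with no expression minimum, as log2(FPKM + 1), so differences of low genes are understated. The groups were compared with limma 3.58.1 (intensity trend, Benjamini-Hochberg adjustment at 0.05) in R 4.3.3. The script was tested on simulated data. Samples were paired by their labelled number. Deviations of same-numbered libraries from their group means had correlations of 0.39 (25), 0.861 (35), 0.892 (36), 0.683 (38) and 0.235 (72) over 13152 genes. Libraries of different numbers were not compared in this way, so these values do not show that the pairing is right. The differences printed come from the fit without tumour number as a block, and an alternative fit has it. The members and the 14 lists (123 genes, 122 found) were chosen with earlier results of these data known. Of each list, only genes among the 6 with the highest values could be named, plus Ptprc, Cd3e, Cd8a, Klrb1c, Klrk1, Serpinb9, Srgn and Ctsc, and not all of these are. Tbx21, Eomes, Cst7, Fasl, Cpa3, mt-Co1 and Snora78 were named after their values were seen. The genes most correlated with each member but Gzmk were computed, 3 for each, and the first or more are named. Promoters are from RefSeq (GRCm38.p6) and transcripts from GENCODE M21. Both are reference sequences, and differences of the FVB strain from them were not examined. Figures were drawn with matplotlib 3.10.9.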

Additional observations from a re-analysis of the deposited data

Results flagged for a closer look

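Metastasis 38 lay far from the other 4 metastasis libraries, with a gap to the nearest value above Dixon's limit of 0.71 of the range, for 6 genes: Gzma (5.39 FPKM), Gzmc (85.5 FPKM), Gzmd (60.9 FPKM), Gzme (24.8 FPKM), Gzmf (49.6 FPKM) and Ncr1 (9.20 FPKM). Primary 25 lay as far from the other 4 primary libraries for 6 genes: Gzma (1.85 FPKM), Gzmc (55.3 FPKM), Gzmd (40.1 FPKM), Gzme (22.7 FPKM), Gzmf (46.5 FPKM) and Gzmk (0.0536 FPKM, about 1.3 fragments). Gzmb, Prf1 and Nkg7 had no such library in either group. Chance marks about 1 in 20 groups of independent, normally distributed values. That rate does not apply to these 12 marks, because the genes share libraries, were chosen with these values known and have many values at 0. The marks describe which library was far from the others and test nothing.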

How the results depend on the processing

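No member was called under any alternative (smallest limma adjusted p = 0.997), with a minimum of 1 FPKM in 5 libraries or of 0.1 FPKM in 2, median ratio scaling, no intensity trend, the libraries of numbers 25, 38 and 72 only, or the block within these, the last chosen after seeing the data. With the tumour number as a replicate block 0 rows were called and 413 had an unadjusted p under 0.05, and no call of a member changed. The count of called rows was 0 to 1 without single libraries. The 1 was Snora78, a small nucleolar RNA, without metastasis 38 (log2 difference 4.85), named after its value was seen. A pseudocount of 0.1 turned the log2 difference of Gzma (-0.56), Gzmd (-0.30), Gzme (-0.12) and Ncr1 (-0.091), which gives low values more weight. Without single libraries the differences ranged from -0.47 to 0.32 (Gzma), -1.02 to 0.57 (Gzmb), -1.41 to 0.55 (Gzmc), -0.82 to 1.09 (Gzmd), -0.63 to 0.95 (Gzme), -0.98 to 0.91 (Gzmf), -0.083 to 0.88 (Prf1), -1.21 to 0.36 (Nkg7) and -0.37 to 0.49 (Ncr1). Gzma, Gzmd, Gzme, Prf1 and Ncr1 turned lower without metastasis 38, Prf1 also without metastasis 72, and Gzmb, Gzmc, Gzmf and Nkg7 turned higher without metastasis 25, 35 or 36 or primary 25 or 38. Gzma, Gzmd and Gzme also turned lower without primary 35 or 36, Gzmd and Gzme without metastasis 72, and Gzme without primary 72. Of the 10 genes, 5 (Gzmb, Gzmc, Gzmd, Gzmf and Nkg7) passed the minimum of 1 FPKM in 5 libraries. No symbol was repeated, so summing repeated rows gave no value. Values near 1 fragment limit what can be said of Gzmk and of metastasis 25.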

Other observations

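Cytokine genes of cytotoxic lymphocytes peaked in metastasis 38. This library also had the highest Ptprc (46.1 FPKM) and the highest summed macrophage genes (4645 FPKM), so the peak is not particular to cytotoxic genes. Gzmb relative to Ptprc was 0.973 in metastasis 38 and 2.22 in metastasis 72, against 2.06, 1.69 and 0.295 in primary 25, 38 and 72. Ifng, interferon gamma, had 11.2 and 1.87 FPKM in metastasis 38 and 72, against 2.73, 2.89 and 0.134 FPKM in primary 25, 38 and 72, and was listed at 0 in metastasis 25 and in numbers 35 and 36. Xcl1, a chemokine of NK and CD8 T cells, had 18.5 and 0.176 FPKM in metastasis 38 and 72, against 4.19, 5.75 and 0.856 FPKM in primary 25, 38 and 72. Metastasis 72 was thus the lowest of these 5 libraries for Xcl1, as it was for Ncr1. Ccl5, a chemokine of effector T cells, had 354 and 137 FPKM in metastasis 38 and 72, against 134, 90.2 and 23.7 FPKM in primary 25, 38 and 72. Fasl, the death receptor ligand, was at most 2.90 FPKM, in metastasis 38.

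Further mast cell genes followed Cma1 and Mcpt4 only in part. Of the 13 granule chymase and mast cell protease genes listed, 7 reached 1 FPKM. Of these 13, 0 were higher in all 6 libraries of numbers 25, 38 and 72, beside 21.2% of all rows reaching 1 FPKM. Tpsab1, like Tpsb2 a tryptase gene, had 4.86 FPKM in metastasis 38 and 0 in primary 38. However, it had 1.05 FPKM in metastasis 25 and 0.194 to 0.842 FPKM in numbers 35 and 36. Tpsb2, a tryptase gene, had 4.42 and 0.824 FPKM in metastasis 38 and 72, against 0.892, 0 and 0.381 FPKM in primary 25, 38 and 72. Cpa3, the mast cell carboxypeptidase, had 1.45 FPKM in metastasis 38 and was listed at 0 in primary 38. Siglech, a gene of plasmacytoid dendritic cells, which can express granzyme B, was at most 3.27 FPKM, in metastasis 38.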
